A study of Mus musculus with 12 samples.

Results

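Described here is the liver transcript response to PPT that wild type mice share with MOER mice, whose receptor per the labels is found at the cell membrane only. PPT is a synthetic ligand that activates oestrogen receptor alpha with little effect on the beta receptor. A probe set, the array's unit for 1 transcript, entered if its intensity lay above the 60th percentile of the array in both wild type oil arrays or in both wild type PPT arrays. Of 28815 probe sets, 12007 were bright enough in this sense, 10409 of them under oil and PPT alike, 786 under oil alone and 812 under PPT alone. Their fitted changes from oil to PPT had the same sign in wild type and MOER for 6120 (51%), of which 2947 were upward and 3173 downward, and opposite signs for 5887. The contrast of interest, called the combined contrast, was the average of those 2 changes minus the change in ERKO mice, which per the labels have no oestrogen receptor alpha. A probe set is called a shared responder where the wild type change, the MOER change and the combined contrast all passed the test with the same sign, which held for 223 probe sets of 178 named genes, 91 up and 132 down.

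All mice were ovariectomized females of 3 months, labelled C57BL/6, with 1 week of recovery. The 6 groups were wild type, MOER and ERKO mice, each with daily intraperitoneal injections for 3 days of 100 µg PPT or of 0.1 mL oil. Whole liver was profiled on the Affymetrix Mouse Gene 1.0 ST array, with the RNA of 3 animals pooled per array and 2 arrays per group, 12 in all. Whether both arrays of a group hold RNA of different mice is not recorded, so a p-value here measures only the spread between these arrays, which may be technical. The labels do not name the promoter behind the MOER receptor or the cells that make it. The study's title and labels ask whether the receptor at the membrane accounts for the effect on liver lipid genes, and its authors searched for transcripts with a PPT effect in the first 2 genotypes and none in ERKO.

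Oestrogen receptor alpha is best known as a nuclear factor that binds DNA when a ligand is present, but a small pool sits at the plasma membrane and signals through kinases. In liver, oestrogens act on lipid, bile acid and steroid handling and on secreted proteins. Genes of cholesterol synthesis are switched on together by SREBP, a membrane-bound factor that Insig proteins hold in the endoplasmic reticulum while sterol is plentiful, and SREBP works there with NF-Y, which binds the CCAAT box of promoters.

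Median array intensities lay between 77.5 and 85.26. Replicate arrays correlated at 0.994 to 0.996 (Pearson's r across the 19119 probe sets tested, which are not independent), but at 0.981 in ERKO oil, where 162 probe sets were over 2-fold apart. Esr1, the gene of the receptor (probe set 10367600), gave intensities of 347 and 365 in the wild type oil arrays and 309 and 325 after PPT. MOER went from 126 and 128 to 117 and 131, and ERKO from 126 and 118 to 145 and 162. It was highest in the 4 wild type arrays, and the MOER and ERKO arrays lay close together, and the combined contrast for Esr1 was -0.39 ± 0.11 (adjusted p = 0.04), a call lost in 10 of 12 fits that left out 1 array. Marker genes of other tissues stood out in single groups. The summed intensity of 11 pancreatic acinar markers was 36603 to 46737 in MOER oil and at most 745.7 in the other groups, that of 10 skeletal muscle markers was 16100 to 16849 in ERKO PPT and at most 731.6 elsewhere, and that of 10 squamous and airway markers was 5872 to 6191 in ERKO PPT, 3502 to 3661 in wild type PPT and at most 394.7 elsewhere. By single markers, 1 of 7 tested squamous and airway markers was called higher with PPT in wild type and 4 in ERKO. No gene of these 3 lists was a shared responder. However, 5 probe sets that each carry 3 amylase symbols were, all downward. The brightest of them gave 1602759 and 1219897 in MOER oil against 2173 and 2285 in MOER PPT, while wild type gave 1884 and 1871 under oil and 1328 and 1309 after PPT. The fall of these probe sets in MOER moved with the acinar sum, whose part in it was not tested.

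More transcripts passed the test in wild type than in MOER. Among the 19119 tested probe sets, 14.8% were higher and 16.2% lower with PPT in wild type, 2.35% higher and 2.31% lower in MOER, and 9.48% higher and 8.46% lower in ERKO (limma, Benjamini-Hochberg adjusted p under 0.05). Of the 12007 bright probe sets, 5019 were called in wild type and 725 in MOER. Both were called with the same sign for 326 (120 up, 206 down), which is 6.5% of the wild type calls and 45% of the MOER calls. Both were called with opposite signs for 252, which is 5.02% and 34.8%. The wild type and MOER responses shared no array, and across the 12007 probe sets they correlated weakly (Pearson's r = 0.104).

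In the combined contrast 7.48% of the tested probe sets were higher and 8.54% lower. Of the 6120 probe sets with one sign, 1469 were called in that direction (681 up, 788 down), and 143 were called against it. These 1469 comprised the 223 shared responders, 791 called in wild type but not in MOER, 34 called in MOER but not in wild type, and 421 called in neither. In 312 of those 421 the ERKO response was called the other way. The description keeps to the shared responders. Among all 19119 tested probe sets 256 (1.34%) met the 3 conditions, 33 of them too dim to be counted here. Since the calls chose the members, their wild type and MOER changes are given as a description. Single arrays moved the number of members. Without ERKO oil replicate 1 there were 147 up and 236 down, and without ERKO oil replicate 2, 162 and 177. Leaving out any 1 MOER array gave 45 to 58 up and 76 to 96 down.

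Changes are given on the log2 scale as PPT minus oil, in the order wild type, MOER and ERKO where 3 stand together, and ± marks the standard error of the fit.

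**Figure D1:**
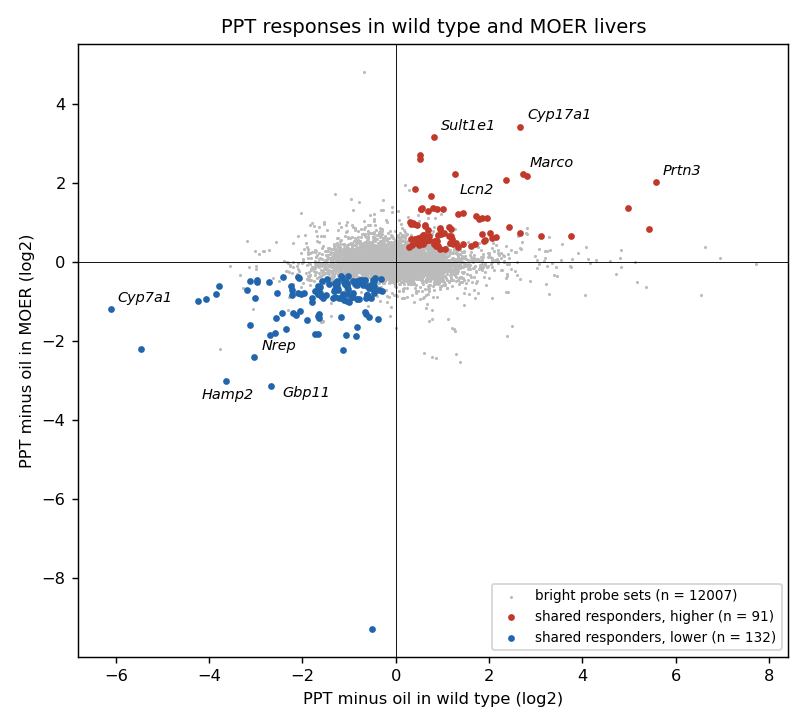
Each point is 1 of the 12007 bright probe sets, placed by its PPT minus oil change on the log2 scale in wild type (x axis) and in MOER (y axis). The 91 shared responders that rose lie upper right in red and the 132 that fell lower left in blue; the lowest blue point is the brightest amylase probe set, at -9.28 in MOER.

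By the smaller of the 2 changes, the named gene that rose most in wild type and MOER was Cyp17a1, an enzyme of steroid hormone synthesis (probe set 10468239). It gave intensities of 1588 and 1593 in the wild type oil arrays and 10535 and 9707 after PPT. MOER went from 222 and 216 to 2449.9 and 2552, and ERKO from 1045 and 902 to 704 and 678. The rise was 2.66 ± 0.095 in wild type and 3.42 ± 0.095 in MOER (n = 2 arrays per group), while ERKO fell by 0.48, and the combined contrast was 3.52 ± 0.12 (limma, adjusted p = 1.83e-08). The PPT arrays lay above the oil arrays in wild type and MOER and below them in ERKO, and MOER started from the lowest level of the 3 genotypes. Sult1e1, the sulfotransferase that inactivates oestrogens, gave 119 and 130.2 in the wild type oil arrays and 244 and 219 after PPT. MOER went from 133 and 109.9 to 1089.7 and 1336, and ERKO from 68.8 and 66.4 to 52.1 and 55.1. Its rise was larger in MOER (3.16 ± 0.12) than in wild type (0.82 ± 0.12), where the gene was bright after PPT alone. Of 19 tested genes of the list of sex-biased liver genes, these were the only 2 shared responders that rose. Wild type called 7 of the 19 higher and 7 lower, MOER 2 higher and 11 lower (median -0.72), and 4 were called with opposite signs in wild type and MOER. Of 18 tested genes of the list of oestrogen-responsive genes, 3 were shared, all upward: Cyp17a1, Igfbp1 and Apoa4. Wild type called 10 of these 18 higher and 2 lower, MOER 3 higher and 1 lower.

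Apoa4, an apolipoprotein of triglyceride-rich particles, gave 959 and 984 in the wild type oil arrays and 8834 and 8347 after PPT. MOER went from 796 and 831 to 1317 and 1241, and ERKO from 999 and 823 to 2186 and 2195. It rose in all 3 genotypes, by 3.12, 0.64 and 1.26, and the combined contrast was 0.62 ± 0.13 (adjusted p = 0.00739). MOER minus ERKO was -0.62 ± 0.14 for this gene, so MOER rose less than ERKO. Igfbp1, the insulin-repressed binding protein of insulin-like growth factors, also rose in all 3 genotypes. It gave 219.7 and 190.4 in the wild type oil arrays and 1194 and 1159.7 after PPT. MOER went from 135 and 125 to 249.6 and 254, and ERKO from 107 and 74.5 to 201 and 206. Its changes were 2.44, 0.87 and 1.06, and its combined contrast of 0.59 ± 0.16 (adjusted p = 0.0312) was lost in 8 of 12 fits that left out 1 array and lay between 0.37 and 0.81 over the alternatives. Pck1, the enzyme that commits to gluconeogenesis, did separate from ERKO. It gave 2901 and 2937 in the wild type oil arrays and 5087 and 5031 after PPT. MOER went from 2089 and 2176 to 5211 and 5729, and ERKO from 3037 and 2513 to 1841 and 1838. Pck1 rose by 0.79 ± 0.10 and 1.35 ± 0.10 and fell by 0.58 in ERKO, a combined contrast of 1.65 ± 0.13 (adjusted p = 1.04e-05). Igfbp1 and Pck1 were the 2 shared responders among 14 tested genes of gluconeogenesis and insulin signalling.

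Macrophage markers had the highest share of shared responders among the 12 cell type lists. Of 15 tested markers of macrophages and Kupffer cells, the resident macrophages of liver, 5 were shared responders and all 5 rose: Marco, Cd5l, Lyz2, Adgre1 and Fcgr1. Marco, a scavenger receptor (probe set 10357261), gave 134 and 136 in the wild type oil arrays and 969 and 987 after PPT. MOER went from 73 and 51.9 to 335 and 357, and ERKO from 134 and 88.3 to 49 and 46.3. Its changes were 2.72 ± 0.16 and 2.22 ± 0.16, and the combined contrast was 3.45 ± 0.20 (adjusted p = 1.34e-06). Both ERKO PPT arrays were dim, below the 40th percentile of their array, and ERKO oil was at least 1.84-fold brighter than ERKO PPT. Cd5l, a protein that macrophages secrete, gave 1823 and 1771 in the wild type oil arrays and 2731 and 2724 after PPT. MOER went from 2034 and 1973 to 2847 and 2853, and ERKO from 2328 and 2096 to 1553 and 1560.3. It rose by 0.60 and 0.51 and fell by 0.50 in ERKO (combined contrast 1.05 ± 0.10, adjusted p = 7.19e-05). Lyz2, the lysozyme of myeloid cells, gave 2133 and 2023 in the wild type oil arrays and 3259 and 3152 after PPT. MOER went from 2031 and 1932 to 3929 and 3676, and ERKO from 2298 and 2062 to 2034 and 1921. Lyz2 was not called in ERKO. Adgre1, which encodes a surface antigen of mouse macrophages, gave 368 and 353 in the wild type oil arrays and 495 and 511 after PPT. MOER went from 371 and 349.6 to 543 and 526, and ERKO from 439 and 374 to 331 and 303. Each of these 4 genes was higher in every PPT array than in every oil array in wild type and in MOER. In ERKO the PPT arrays of all 4 lay below the oil arrays. The calls that chose these genes rest on the same arrays, so the separation is a description only.

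The other macrophage markers did not follow as a block. Clec4f, a lectin of mouse Kupffer cells, changed by -0.30, 0.19 and -0.32, with a combined contrast of 0.26 ± 0.11 (adjusted p = 0.135). Timd4 was called with opposite signs, 0.56 in wild type and -0.75 in MOER. The list's median changes were 0.13, 0.31 and -0.32, beside 0.00 in each genotype over all 13987 genes tested. Its summed intensity was 13101 to 13380 in wild type oil and 16020 to 16121 after PPT, 14948 to 15120 and 18895 to 19051 in MOER, and 13669 to 15479 and 12096 to 12362 in ERKO. This sum includes the 5 shared responders, whose rises made up most of its change in wild type and MOER, so it is not separate from them. By single markers, wild type called 6 of 15 higher and 1 lower, MOER 6 and 2, and ERKO 0 and 7. In a whole-liver sample more cells of a type and more RNA per cell cannot be told apart.

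Further myeloid genes rose beside them. Of 12 tested genes of the Ms4a family of membrane proteins, a set chosen after its values were seen, 4 were shared and rose, beside 79 of 13987 genes in all. They were Ms4a4a, Ms4a4c, Ms4a6b and Ms4a6c. Ms4a4a was dim under oil and rose at least 2.92-fold in wild type and at least 1.96-fold in MOER (combined contrast adjusted p = 0.00117). Ms4a6c gave 384 and 380.0 in the wild type oil arrays and 781 and 723 after PPT. MOER went from 336 and 329.6 to 577 and 640.2, and ERKO from 376 and 346 to 394 and 397. Cd300e, an activating receptor of myeloid cells, gave 120.4 and 114 in the wild type oil arrays and 455 and 430.5 after PPT. MOER went from 164 and 158 to 346 and 369.6, and ERKO from 164 and 156 to 145 and 135. It changed by 1.79, 1.08 and -0.17, with a combined contrast of 1.61 ± 0.11 (adjusted p = 3.68e-06). Prtn3, proteinase 3 of neutrophil granules, gave 66.7 and 54.7 in the wild type oil arrays and 3634 and 3575 after PPT. MOER went from 80.1 and 58.6 to 356 and 301, and ERKO from 209 and 127 to 138 and 133. It was brighter in every PPT array than in every oil array of wild type and MOER, with a rise of 5.57 ± 0.19 in wild type, where it was bright after PPT alone, and 2.02 ± 0.19 in MOER. It was the only shared responder among 10 tested neutrophil markers. S100a8, a calcium-binding protein abundant in neutrophils, was dim in wild type oil and rose at least 2.79-fold there, with -0.11 ± 0.14 in MOER. The summed intensity of 11 neutrophil markers was 478 to 520.9 under oil and 4270 to 4368 after PPT in wild type. It was 1174 to 1359 and 1403 to 1448 in MOER, and 2052 to 2834 and 1601 to 1703 in ERKO. This sum includes Prtn3, whose 3634 and 3575 made up most of it in wild type PPT, so it is not separate from that gene. By single markers, wild type called 5 of the 10 tested higher and 0 lower, and ERKO 0 higher and 5 lower. MOER called 1 higher, Prtn3 itself, and 0 lower. The part of the other markers in the values of Prtn3 was not tested.

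Of 19 tested genes of chemokines and cytokine signalling, Cxcl13, Ccl6 and Cxcl1 rose in both genotypes and Cxcl9 fell. Cxcl13, which attracts B cells, gave 320.0 and 296 in the wild type oil arrays and 808 and 728 after PPT. MOER went from 187 and 194 to 862 and 1022, and ERKO from 332 and 262 to 324 and 346. Its rise was 1.27 ± 0.13 in wild type and 2.21 ± 0.13 in MOER, with 0.17 ± 0.13 in ERKO and a combined contrast of 1.57 ± 0.15 (adjusted p = 6.68e-05). Cxcl1, which attracts neutrophils, gave 239.6 and 279 in the wild type oil arrays and 375 and 376 after PPT. MOER went from 275 and 325 to 1901 and 1864, and ERKO from 269.9 and 233 to 327 and 318. The rise of Cxcl1 lay mainly in MOER, at 2.59 ± 0.11 against 0.51 ± 0.11 in wild type and 0.34 ± 0.11 in ERKO, and wild type minus ERKO was 0.17 ± 0.16 (adjusted p = 0.503). Ccl6 changed by 0.89, 1.35 and 0.47, and its combined contrast of 0.65 ± 0.14 (adjusted p = 0.0123) was lost without ERKO PPT replicate 2, at 0.63. Cxcl9, which interferon gamma induces, gave 435 and 396 in the wild type oil arrays and 188 and 180.2 after PPT. MOER went from 462 and 398 to 222 and 202, and ERKO from 289.5 and 245 to 227 and 232. Cxcl9 fell by 1.11 in wild type and by 0.97 in MOER (combined contrast -0.84 ± 0.14, adjusted p = 0.00229).

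Acute phase proteins, which the liver secretes in inflammation, gave 6 shared responders among 24 tested genes, all upward: Lcn2, Saa1, Saa2, Serpina3n, Itih3 and Itih4. Lcn2, the iron-siderophore binder lipocalin 2 (probe set 10481627), gave 875 and 798 in the wild type oil arrays and 4416 and 4349 after PPT. MOER went from 2364 and 2289 to 9934 and 9781, and ERKO from 5499 and 5025 to 9865 and 10363. It rose by 2.37 ± 0.089, 2.08 ± 0.089 and 0.94 ± 0.089, so ERKO rose too, and the combined contrast was 1.28 ± 0.11 (adjusted p = 2.38e-05). Saa1, a serum amyloid A protein, gave 1752 and 1744 in the wild type oil arrays and 6961 and 6623 after PPT. MOER went from 5798 and 5220.2 to 12277 and 11537, and ERKO from 9396 and 6959 to 11101 and 11722. MOER minus ERKO was 0.62 ± 0.18 for Saa1 (adjusted p = 0.056), and its neighbour Saa2, whose probes may share transcripts with it, changed by 2.15, 0.63 and 0.36. Serpina3n, a serine protease inhibitor, gave 2479 and 2461 in the wild type oil arrays and 4263 and 4071 after PPT. MOER went from 2595 and 2579 to 8028 and 8457, and ERKO from 5852 and 5451 to 7849 and 7818. Its largest rise was in MOER. Itih4, a heavy chain of the inter-alpha-inhibitors, changed by 0.31, 1.00 and -0.03. Lrg1, a leucine-rich plasma glycoprotein outside the list, gave 1812 and 1809 in the wild type oil arrays and 3639 and 3703 after PPT. MOER went from 1686 and 1737 to 4591 and 4094, and ERKO from 2438 and 2026 to 2373 and 2275. Its changes of 1.01, 1.33 and 0.06 and combined contrast of 1.11 ± 0.13 (adjusted p = 0.000228) went with no call in ERKO.

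The acute phase list as a whole did not respond alike in the 2 genotypes. MOER called 16 of 24 higher and 0 lower, with a median of 0.78, whereas wild type called 9 higher and 6 lower, with a median of 0.17, and 6 genes were called with opposite signs. Hamp, the iron regulator hepcidin, fell by 1.06 in wild type and rose by 0.75 in MOER. Interferon-induced genes diverged further. Of 18 tested, 9 were called higher in MOER and 0 lower, 1 higher and 10 lower in wild type, and Bst2, a membrane protein that tethers virus particles, was the 1 shared responder. Bst2 changed by 0.47, 0.60 and -0.14, and its call (combined contrast 0.67 ± 0.16, adjusted p = 0.0173) was lost without either ERKO PPT array, at 0.71 and 0.64.

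Among genes of hepatocyte metabolism that rose, Slc25a47, a mitochondrial carrier of liver, gave 2784 and 2691 in the wild type oil arrays and 7619 and 7221 after PPT. MOER went from 1361 and 1372 to 3284 and 3230.1, and ERKO from 2657 and 1954 to 2005 and 1851. Its rises of 1.43 ± 0.13 and 1.24 ± 0.13 were not shown to differ (0.19 ± 0.18, 95% interval -0.21 to 0.59), and the combined contrast was 1.58 ± 0.16 (adjusted p = 7.23e-05). Slc3a1, the heavy chain of the cystine transporter, gave 1056 and 1158 in the wild type oil arrays and 3756 and 3607 after PPT. MOER went from 1589.8 and 1570.0 to 3296 and 3752, and ERKO from 2107 and 1938 to 1998 and 1918. The PPT arrays of both genotypes lay above every other array for Slc3a1, and its ERKO change was -0.05 ± 0.097. Plin2, the coat protein of lipid droplets, was the 1 shared responder among 20 tested genes of triglyceride storage. It gave 2925 and 2915 in the wild type oil arrays and 3580.0 and 3531 after PPT. MOER went from 2305 and 2311 to 2935 and 3022, and ERKO from 3369 and 3198 to 2394 and 2348. Plin2 rose by 0.28 and 0.37 and fell by 0.47 in ERKO (combined contrast 0.79 ± 0.098, adjusted p = 0.000383).

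Of 20 tested chaperones and stress genes of the endoplasmic reticulum, wild type called 18 higher and 0 lower, MOER 4 higher and 1 lower, and 3 were shared: Herpud1, Pdia4 and Pdia6. Herpud1, which takes part in degradation of misfolded proteins, gave 1750.3 and 1750.1 in the wild type oil arrays and 3896 and 4093 after PPT. MOER went from 971 and 1029 to 1635 and 1527, and ERKO from 1898 and 1543 to 856 and 843. It rose by 1.18 and 0.65 and fell in ERKO, a combined contrast of 1.91 ± 0.13 (adjusted p = 4.21e-06). Pdia4 and Pdia6, disulphide isomerases, changed by 0.94, 0.33 and -0.29 and by 1.32, 0.39 and 0.29. Hspa5, the main chaperone of this compartment, rose by 1.29 ± 0.085 in wild type but gave -0.11 ± 0.085 in MOER (adjusted p = 0.638). Other secretory genes among the shared responders that rose, named after their values were seen, were Sec61a1, Rpn1, Stt3a, Uggt1, P4hb and Copa.

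The remaining strong risers had less clear roles in liver. Crybb3, a lens crystallin, was dim in MOER oil and rose at least 4.03-fold in MOER, and it also rose by 1.76 ± 0.17 in ERKO. Its combined contrast of 0.73 ± 0.21 (adjusted p = 0.0391) was lost in 9 of 12 fits that left out 1 array. AI506816 was dim in MOER oil and rose at least 1.95-fold there and by 1.33 ± 0.16 in wild type (combined contrast adjusted p = 0.000319).

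**Figure D2:**
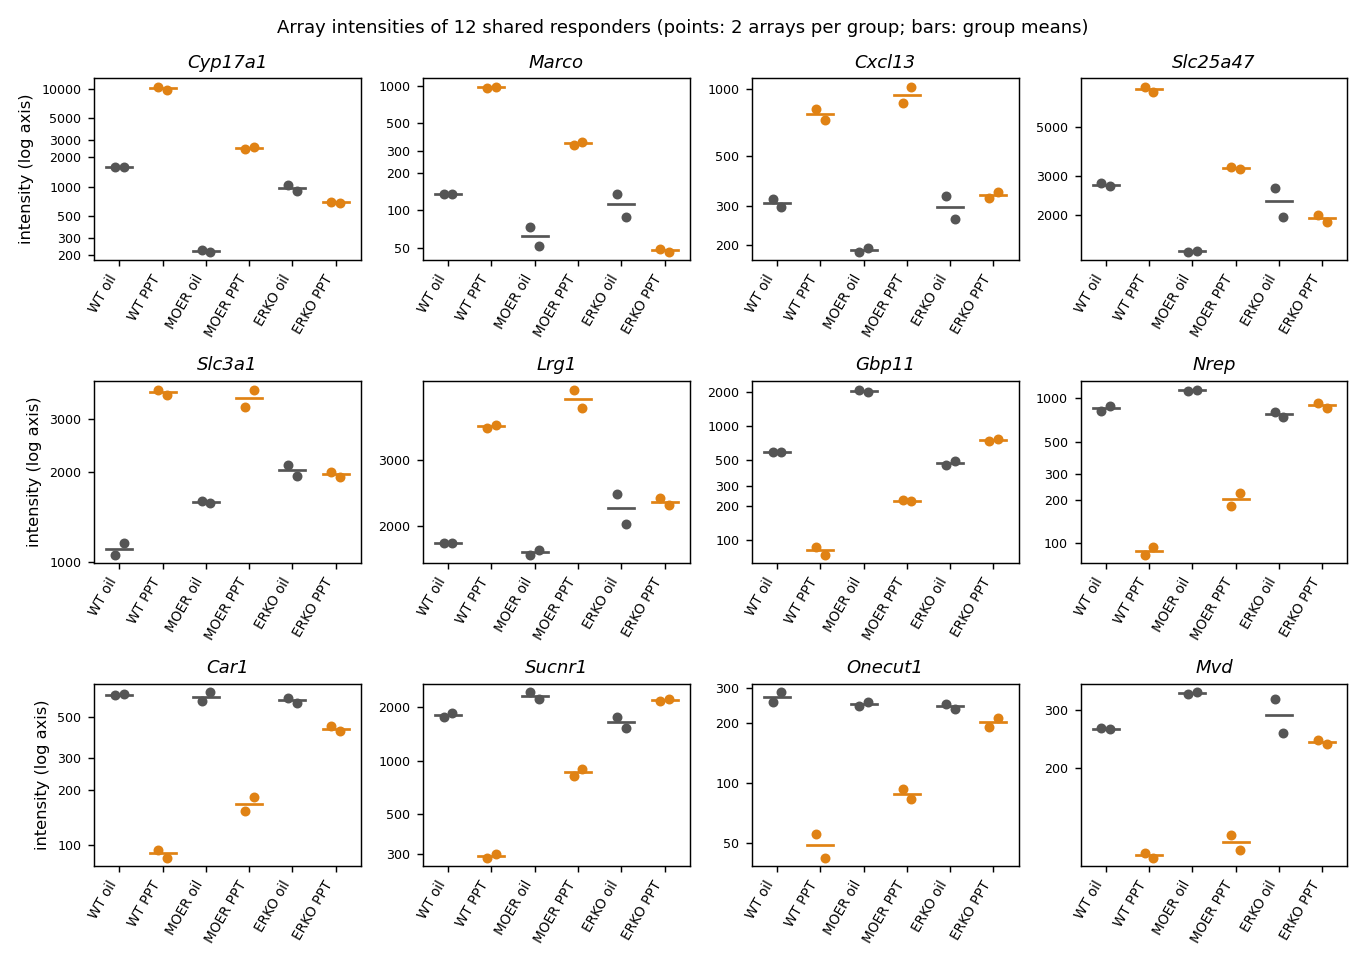
Intensity on a log axis in each of the 12 arrays for 12 shared responders (points are arrays, horizontal bars the means of 2 arrays, grey for oil and orange for PPT; each panel has its own scale). In wild type and MOER the PPT arrays lie wholly above the oil arrays for the first 6 genes and wholly below them for the last 6. The 12 genes were chosen by their calls in both genotypes, so this separation is a description only. Those bright in wild type under oil alone include Gbp11, Nrep, Car1 and Onecut1. The ERKO arrays move less or the other way, as for Nrep with 741 to 800 under oil and 852 to 927 after PPT.

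Among the genes that fell, Hamp2, the second hepcidin gene of the mouse (probe set 10562166), had the largest fall shared by both genotypes among named genes. It gave 7789 and 8487 in the wild type oil arrays and 643 and 641 after PPT. MOER went from 10809.7 and 9364 to 1116 and 1366, and ERKO from 4641 and 3674 to 1253 and 1301. The falls were -3.63 ± 0.13, -3.01 ± 0.13 and, in ERKO, -1.68 ± 0.13, so the direction was the same in all 3 genotypes and the combined contrast was -1.64 ± 0.17 (adjusted p = 8.37e-05). Gbp11, a guanylate-binding protein of the interferon-induced kind (probe set 10532019), gave 598 and 594 in the wild type oil arrays and 87.1 and 73.9 after PPT. MOER went from 2109 and 2026 to 222 and 220.5, and ERKO from 459 and 491 to 738 and 781. It fell by 2.67 in wild type and by 3.13 in MOER and rose by 0.66 in ERKO, which gave a combined contrast of -3.56 ± 0.11 (adjusted p = 1.83e-08). The family was looked at after this was seen. Gbp11, Gbp2b, Gbp4 and Gbp8 were shared responders among 8 tested guanylate-binding protein genes. All 4 fell, beside 99 of 13987 genes tested in all. Gbp4 gave 387 and 426 in the wild type oil arrays and 296 and 245 after PPT. MOER went from 771 and 702 to 246 and 291, and ERKO from 391 and 334 to 439 and 428. Gbp8 gave 366 and 380.5 in the wild type oil arrays and 179 and 167 after PPT. MOER went from 519 and 405 to 291 and 304, and ERKO from 359 and 301 to 391 and 400.2. Neither Gbp4 nor Gbp8 was called in ERKO. These genes are close copies, and probes of one can bind transcripts of another. In MOER they fell whereas the median MOER change of the interferon-induced genes was 0.53.

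Nrep, first described in regenerating nerve, gave 817 and 878 in the wild type oil arrays and 83.7 and 94.4 after PPT. MOER went from 1124 and 1141 to 179 and 224, and ERKO from 799.7 and 741 to 927 and 852. The PPT arrays of wild type and MOER lay below every other array, and the combined contrast was -2.93 ± 0.14 (adjusted p = 2.63e-07). Car1, a carbonic anhydrase best known from red blood cells, gave 665 and 671 in the wild type oil arrays and 94.4 and 85.3 after PPT. MOER went from 613 and 685 to 153 and 182, and ERKO from 640.0 and 602 to 451 and 419. It changed by -2.69, -1.86 and -0.50. The summed intensity of 4 markers of red blood cell precursors was 1206 to 1265 in wild type oil and 1908 to 1960 in wild type PPT. It was 2673 to 2688 in MOER oil and 1166 to 1296 in MOER PPT. These changes were largely those of 1 marker, Tfrc, whose mean went from 548 to 1360 in wild type and from 1750 to 339 in MOER. By single markers, wild type called 1 of 3 tested higher and 1 lower, and MOER 1 lower. The sum therefore does not describe these markers as a set, and their part in Car1 was not tested. Clec2h, a C-type lectin, was dim in wild type PPT and fell there at least 4.43-fold. In MOER it went from 250.4 and 241 to 48.9 and 71, and in ERKO it rose from 224 and 213 to 501 and 511.

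Sucnr1, the receptor for succinate, gave 1772 and 1849.9 in the wild type oil arrays and 286 and 299.7 after PPT. MOER went from 2419 and 2230.4 to 823 and 898, and ERKO from 1762 and 1522 to 2164 and 2209. It fell by 2.57 in wild type and by 1.42 in MOER and rose by 0.41 in ERKO (combined contrast -2.40 ± 0.12, adjusted p = 4.19e-07). Onecut1, the hepatocyte transcription factor HNF6, was the 1 shared responder among 13 tested genes of growth hormone and prolactin signalling. It was dim in wild type PPT and fell there at least 4.83-fold, and MOER went from 242 and 254 to 93.5 and 83.5 while ERKO gave 249.9 and 235 and then 192 and 213. 9030619P08Rik, a gene named by its clone, gave 1982 and 2094 in the wild type oil arrays and 622 and 647 after PPT. MOER went from 2199.5 and 2023 to 819.7 and 794, and ERKO from 1059.7 and 895 to 795 and 807. It fell in wild type and MOER with no call in ERKO (combined contrast -1.24 ± 0.12, adjusted p = 7.15e-05).

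Cholesterol synthesis was the list with the highest share of shared responders. Of 20 tested genes 13 were shared, all downward, beside 99 of 13987 genes tested in all. All 20 were bright enough in wild type to be members, as were 8734 of the 13987. Wild type called 19 lower, MOER 14 and ERKO 7, with 0 higher in each, and the medians were -1.16, -0.59 and -0.21, beside 0.00 in each genotype over all genes. The combined contrast called 16 lower. Several of the 13 have a CCAAT box close upstream of their start, and the sequences of 6 are shown, chosen after their values were seen, because RefSeq (GRCm38.p6) holds their promoters and they cover the pathway from isopentenyl units to sterol. Each reads 5′ to 3′ toward the start of the transcript and lies wholly upstream of it, and the capitals mark CCAAT or, where the box lies on the other strand, ATTGG.
Mvd (chr8:122443423-122443534, minus strand): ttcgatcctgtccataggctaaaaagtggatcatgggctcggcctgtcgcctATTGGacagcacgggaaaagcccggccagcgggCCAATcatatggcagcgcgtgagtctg
Idi1 (chr13:8885507-8885605, plus strand): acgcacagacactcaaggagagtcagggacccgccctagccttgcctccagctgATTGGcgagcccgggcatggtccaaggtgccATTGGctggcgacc
Lss (chr10:76531458-76531572, plus strand): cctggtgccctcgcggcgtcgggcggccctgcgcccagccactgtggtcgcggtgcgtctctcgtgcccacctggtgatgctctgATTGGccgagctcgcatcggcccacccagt
Cyp51 (chr5:4104698-4104811, minus strand): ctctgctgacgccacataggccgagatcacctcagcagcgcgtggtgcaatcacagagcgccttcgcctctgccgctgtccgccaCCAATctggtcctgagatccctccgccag
Msmo1 (chr8:64733604-64733718, minus strand): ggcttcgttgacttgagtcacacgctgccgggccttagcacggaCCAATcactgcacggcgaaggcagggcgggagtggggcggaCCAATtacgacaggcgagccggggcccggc
Hsd17b7 (chr1:169969206-169969302, minus strand): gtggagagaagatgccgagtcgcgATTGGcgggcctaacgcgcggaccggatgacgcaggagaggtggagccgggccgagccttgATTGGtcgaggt

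Promoter windows of 300 bases, 250 before to 50 after the start, were searched on both strands. CCAAT was found in 16 of the 16 cholesterol synthesis genes with a window in the table, 10 of them shared responders, and in 41.1% of all 27025 genes. It was found in 59.5% of the 74 matched shared responders that fell, which include those 10, and in 32.9% of the 70 that rose. The sterol regulatory element, searched as TCACNCCAC, was found in 3 of the 74 and 1 of the 70, beside 1.44% of all genes, and in 1 of the 16 cholesterol synthesis genes. A palindromic oestrogen response element, searched as GGTCA, 3 bases of any kind and TGACC, was found in 0 of the 74 and 0 of the 70, beside 0.074% of all genes. Its single arm AGGTCA, which such a palindrome can hold, was found in 12 and 16 of them, beside 18.1%. A match says only that these letters are present. A window without one says nothing of sites with other letters inside it or of sites elsewhere.

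Mvd, which makes isopentenyl diphosphate (probe set 10582310), gave 264 and 263 in the wild type oil arrays and 109.9 and 107 after PPT. MOER went from 335 and 339.9 to 125 and 113, and ERKO from 324 and 256 to 243 and 237. Its falls of -1.17 ± 0.11 and -1.39 ± 0.11 contrasted with -0.25 ± 0.11 in ERKO (combined contrast -1.03 ± 0.13, adjusted p = 0.000531). Idi1, the isomerase of the next step, gave 5605 and 5572 in the wild type oil arrays and 2652 and 2360.1 after PPT. MOER went from 6031 and 5593 to 2908 and 3276, and ERKO from 5753 and 5290.3 to 5734 and 5920.3. Its 2 probe sets were both shared responders, and their PPT arrays in wild type and MOER were lower than all other arrays, and ERKO changed by 0.08 ± 0.10. Lss, which closes the sterol rings, gave 315 and 314 in the wild type oil arrays and 140.3 and 146 after PPT. MOER went from 348 and 337 to 173 and 157, and ERKO from 379 and 323 to 279 and 256. The falls of Lss in wild type and MOER were not shown to differ (-0.06 ± 0.14, 95% interval -0.38 to 0.25), and each exceeded that of ERKO (adjusted p = 0.00562 and 0.019). Cyp51, the demethylase of lanosterol, gave 1219 and 1289 in the wild type oil arrays and 572 and 557 after PPT. MOER went from 1524 and 1401 to 792 and 859, and ERKO from 1597 and 1334 to 1291 and 1374. The oil and PPT arrays of Cyp51 overlapped in ERKO alone.

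For Mvd, Idi1, Lss, Cyp51, Pmvk and Fdps the wild type and the MOER response each differed from the ERKO response on its own, whereas for Insig1, Nsdhl, Fdft1, Sqle, Msmo1, Sc5d and Hsd17b7 the MOER response did not pass that test. Insig1, which retains SREBP, changed by -1.68, -0.61 and -0.13, and Nsdhl, a late demethylating enzyme, by -2.09, -0.38 and -0.09. Their wild type falls were larger than those in MOER by 1.06 and 1.71 on the log2 scale. Calls of Sqle and Hsd17b7 in the combined contrast were lost without ERKO PPT replicate 1. Hmgcs1, an early enzyme of the pathway, was not shared: it changed by 0.18 ± 0.087 in wild type (adjusted p = 0.15) and fell by 0.92 in MOER. Srebf2, which encodes the SREBP of cholesterol synthesis, changed by -0.52, -0.22 and -0.22, called in wild type alone.

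Fatty acid synthesis gave 5 shared responders among 19 tested genes, all downward: Acss2, Acly, Mid1ip1, Acacb and Me1. Wild type called 15 of the 19 lower, MOER 12 and ERKO 12, with medians of -0.95, -0.57 and -0.38. Srebf1, which encodes the SREBP of fatty acid synthesis (probe set 10386473), gave 415 and 408 in the wild type oil arrays and 146 and 151 after PPT. MOER went from 534 and 522 to 269 and 231, and ERKO from 503 and 406 to 245 and 212. It fell by 1.38, 1.04 and 0.94, each called, and the combined contrast was -0.27 ± 0.15 (adjusted p = 0.257). Fasn, the fatty acid synthase (probe set 10393970), gave 541 and 531 in the wild type oil arrays and 337 and 367 after PPT. MOER went from 535 and 502 to 235 and 222, and ERKO from 651 and 558 to 303 and 286. Its changes of -0.59, -1.13 and -0.99 gave a combined contrast of 0.14 ± 0.12 (adjusted p = 0.501). Acaca, the acetyl-CoA carboxylase that feeds it, changed by -0.59, -0.38 and -0.46, with a combined contrast of -0.02 ± 0.11 (adjusted p = 0.928). In these 3 genes the PPT arrays lay below the oil arrays in ERKO as in wild type and MOER. Their differences from ERKO were not resolved by these arrays, which does not show that they are 0. Without ERKO oil replicate 1, Srebf1 was called at -0.41.

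Acly, which makes cytosolic acetyl-CoA from citrate (probe set 10391146), gave 803 and 904 in the wild type oil arrays and 329 and 334 after PPT. MOER went from 1241 and 1227 to 727 and 751, and ERKO from 1046 and 948 to 815 and 774. It changed by -1.32 ± 0.093, -0.73 ± 0.093 and -0.32 ± 0.093, and the combined contrast was -0.70 ± 0.11 (adjusted p = 0.00223), although MOER minus ERKO alone was -0.41 ± 0.13 (adjusted p = 0.0722). Acss2, which makes acetyl-CoA from acetate, changed by -3.02, -0.91 and -0.50. Acacb, the carboxylase at the mitochondrion, gave 336 and 335 in the wild type oil arrays and 158 and 148 after PPT. MOER went from 338 and 329.7 to 209.6 and 248, and ERKO from 319.9 and 263 to 356 and 320.4. It was the 1 gene of the 5 for which wild type and MOER each differed from ERKO. Me1, the malic enzyme, changed by -0.35, -0.70 and -0.20, and its combined contrast of -0.32 ± 0.097 (adjusted p = 0.0469) was lost in 10 of 12 fits that left out 1 array. Mid1ip1, a regulator of acetyl-CoA carboxylase, changed by -1.74, -0.75 and -0.80, and its combined contrast of -0.45 ± 0.11 (adjusted p = 0.0198) was lost without wild type oil replicate 2, wild type PPT replicate 1 or ERKO PPT replicate 2. Scd1, the stearoyl-CoA desaturase, gave 7673 and 7908 in the wild type oil arrays and 2407 and 2236 after PPT. MOER went from 8280.3 and 8210.5 to 6707 and 7074, and ERKO from 7332 and 6489 to 5074 and 5492. Its fall was called in wild type, by 1.74, but was not called in MOER (-0.26 ± 0.095, adjusted p = 0.207). Thrsp, a lipogenic protein related to Mid1ip1, was called with opposite signs, 1.47 in wild type and -1.09 in MOER.

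**Figure D3:**
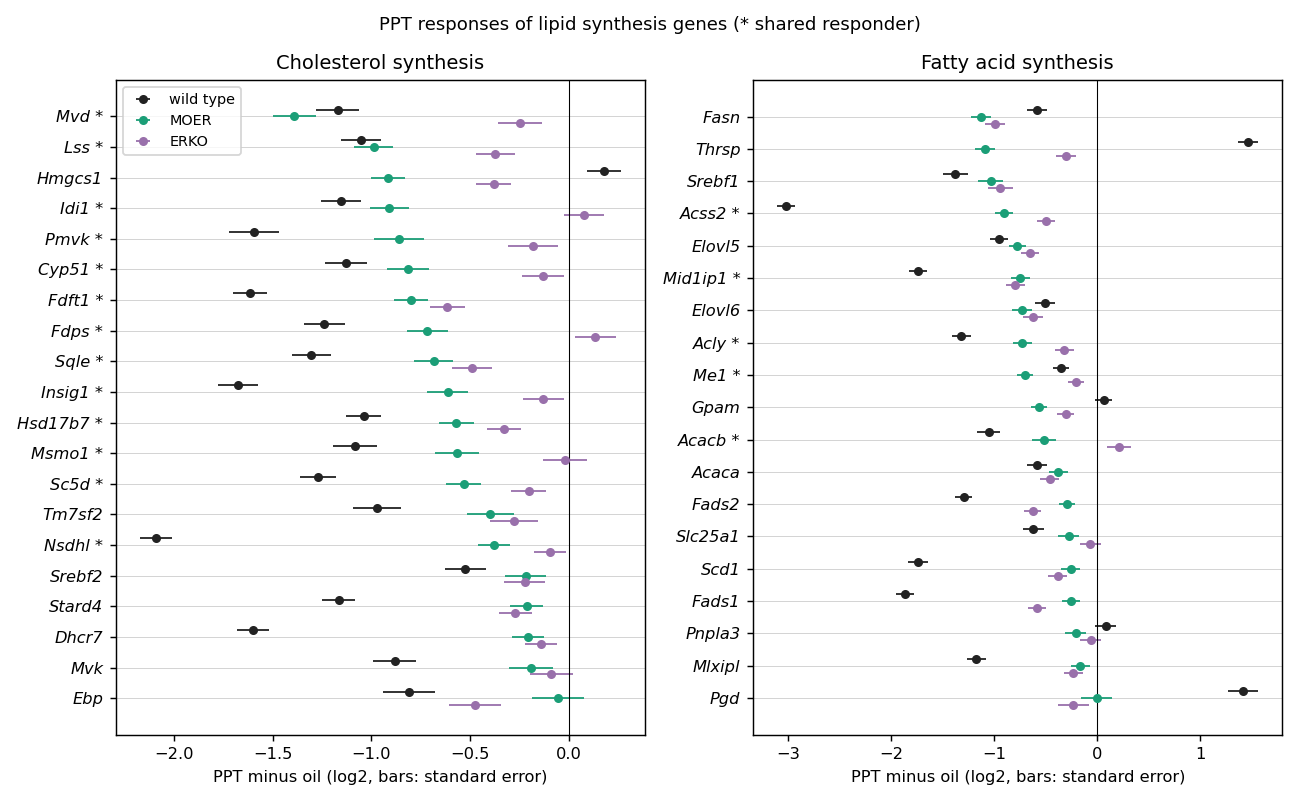
PPT minus oil change on the log2 scale (x axis, bars are standard errors of the fit, 2 arrays per group) for the 20 tested genes of cholesterol synthesis and the 19 of fatty acid synthesis, ordered by the MOER change, with an asterisk for shared responders. In the left panel ERKO lies near 0 for most genes, whereas Fasn, Srebf1, Elovl5 and Elovl6 in the right panel show ERKO beside MOER.

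Other lipid genes that fell were Aacs, which makes acetoacetyl-CoA for lipid synthesis, and Angptl8, a liver hormone that restrains lipoprotein lipase. Aacs gave 293 and 269 in the wild type oil arrays and 70.9 and 76.1 after PPT. MOER went from 369.9 and 362 to 79 and 107, and ERKO from 427 and 359 to 232 and 191. It fell by 1.73, 1.82 and 0.85. Angptl8 gave 1212 and 1148 in the wild type oil arrays and 375 and 351 after PPT. MOER went from 1555 and 1575 to 418 and 447, and ERKO from 1871 and 1474 to 839.7 and 885. It fell by 1.66, 1.82 and 0.93. In both genes ERKO fell as well, by less than wild type and MOER, and the combined contrasts were -0.93 ± 0.17 (adjusted p = 0.00491) and -0.80 ± 0.14 (adjusted p = 0.00325). Of 22 tested genes of fatty acid oxidation and PPAR-alpha targets, 3 were shared and fell: Acot1, Acaa1b and Cyp4a10. Acot1, an acyl-CoA thioesterase, was dim after PPT and fell at least 4.93-fold in wild type and at least 2.6-fold in MOER. Acaa1b, a peroxisomal thiolase, fell by 2.20 in wild type and by 1.29 in MOER, and its MOER change was not shown to differ from that of ERKO (-0.30 ± 0.16, adjusted p = 0.276). Cyp4a10, a fatty acid omega-hydroxylase, gave 4419 and 4383 in the wild type oil arrays and 2484 and 2356 after PPT. MOER went from 4965 and 4587 to 1277 and 1295, and ERKO from 3619 and 3426 to 2541 and 2628. The larger fall was in MOER. In this list ERKO called 17 of 22 lower, wild type 14 and MOER 7.

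Of 22 tested genes of bile acid synthesis and sterol transport, Cyp7a1 and Cyp8b1 were shared and fell. Cyp7a1, the rate-limiting enzyme, was dim after PPT in wild type and fell there at least 46.3-fold. In MOER it went from 3287 and 3123 to 1336 and 1439 and in ERKO from 4177 and 3922 to 1905 and 1865. The MOER and ERKO changes of Cyp7a1 differed by -0.10 ± 0.12 (adjusted p = 0.653), so a MOER effect beyond that of ERKO was not resolved for it. Cyp8b1, the sterol hydroxylase that sets the share of cholic acid, was dim after PPT in wild type, at least 10.6-fold lower. It fell from 571 and 506 to 273 and 256 in MOER, and ERKO gave 418 and 354 and then 489 and 473. For Cyp8b1 MOER minus ERKO was -1.29 ± 0.15 (adjusted p = 0.000277). Nr0b2, the repressor SHP of bile acid signalling, was called with opposite signs, 1.12 in wild type and -1.45 in MOER.

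Of 16 tested genes of drug metabolism, Cyp2b10, Cyp1a2 and Gstm3 were shared and fell. Cyp2b10, a target of the receptor CAR, changed by -3.78, -0.61 and -0.67, and Cyp1a2, a target of the aryl hydrocarbon receptor, by -2.07, -0.40 and -0.49. MOER minus ERKO was 0.06 ± 0.13 and 0.09 ± 0.13 for these genes, and neither passed. Families looked at after their values were seen gave 8 falling and 1 rising of 74 tested cytochrome P450 genes, 4 falling of 19 glutathione transferases, 3 falling of 16 carboxylesterases and 4 falling of 17 hydroxysteroid dehydrogenases, beside 79 rising and 99 falling of all 13987 genes. Cyp2c55 gave 353 and 333 in the wild type oil arrays and 104 and 93.2 after PPT. MOER went from 986 and 805 to 297 and 352, and ERKO from 508 and 429.7 to 774 and 774. It rose in ERKO, and the combined contrast was -2.24 ± 0.16 (adjusted p = 5.37e-06). Fmo2, a flavin monooxygenase, was the 1 shared responder of the sex-biased list that fell. It gave 723 and 794 in the wild type oil arrays and 191 and 194 after PPT. MOER went from 1074 and 1063 to 362 and 395, and ERKO from 1101 and 962 to 598 and 545. It changed by -1.89, -1.46 and -0.83. Ces1d, a carboxylesterase that hydrolyses triglyceride, changed by -2.44, -1.29 and -1.52. The combined contrast of Ces1d was -0.34 ± 0.10 (adjusted p = 0.0471) and was lost in 11 of 12 fits that left out 1 array.

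**Figure D4:**
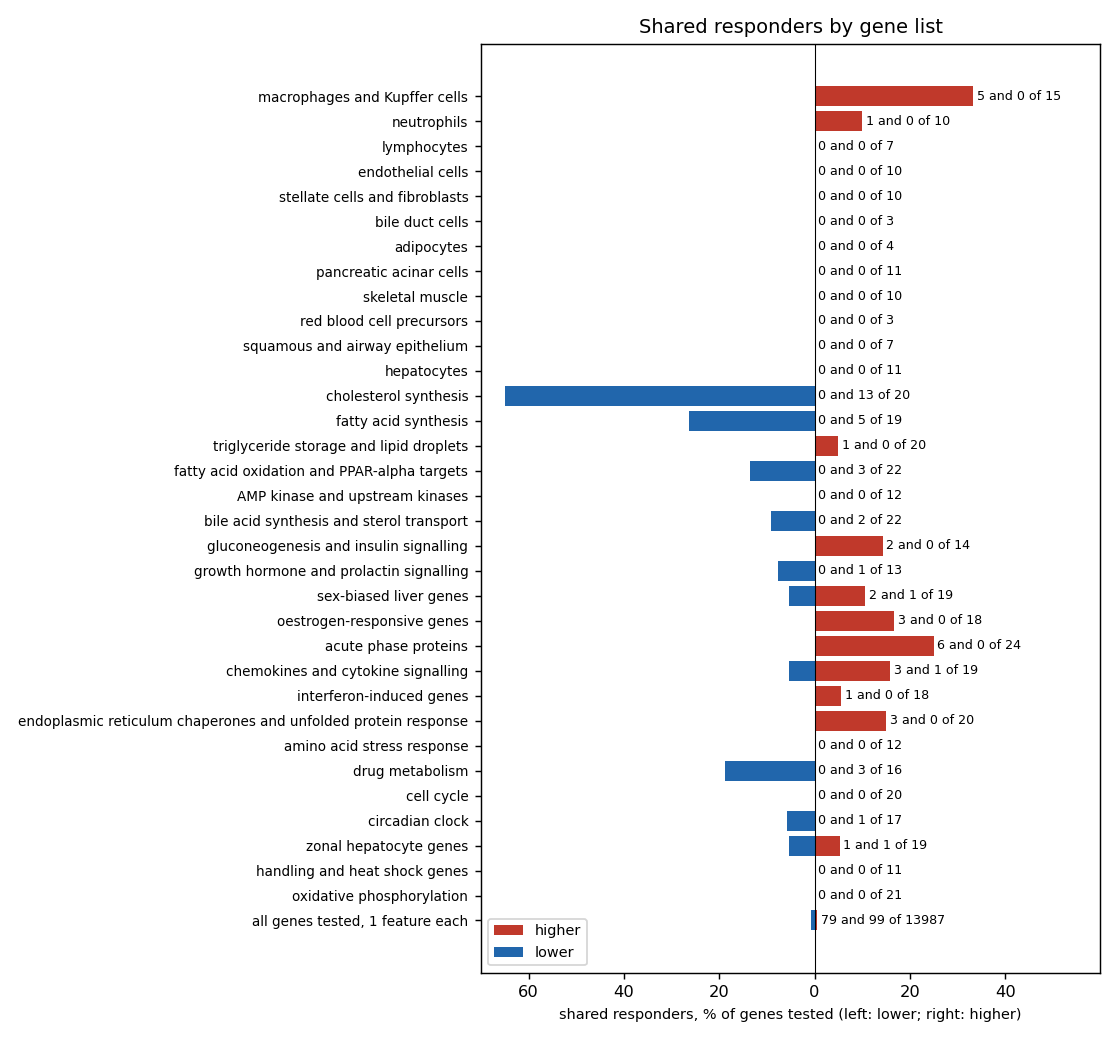
Shared responders as a share of the tested genes (%) of each of 12 cell type lists and 21 pathway lists, downward responders to the left and upward ones to the right, with the counts of upward and downward genes beside each bar. Cholesterol synthesis reaches farthest to the left (0 and 13 of 20) and macrophages farthest to the right (5 and 0 of 15), beside 79 and 99 of all 13987 genes. Of the 13987, 8734 were bright enough to be members.

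Over all 13987 genes tested 79 rose and 99 fell as shared responders, so a list of this size with 0 or 1 of them lies near the background. Of the 13987, 8734 were bright enough in wild type to be members. The rest could not enter, which lowers the background given beside each list and family. Of 17 tested genes of the circadian clock, Arntl was the 1 shared responder.

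ERKO was called in the same direction for 58 (13 up, 45 down), in the other direction for 44 (29 up, 15 down), and was not called for 121 (49 up, 72 down). The wild type and the MOER response each differed from the ERKO response on its own for 143 (66 up, 77 down), and a change of at least 2-fold in both genotypes was reached by 39 (14 up, 25 down). A further 103 probe sets were called in wild type and MOER with one sign but failed in the combined contrast, 94 because it was not called and 9 because it was called the other way. In 85 of these 103 the ERKO response was called in the same direction as the others (22 up, 63 down). Among named genes, the largest ERKO changes in the shared direction were those of Crybb3, Ly6d and Hamp2. Ly6d, a surface protein of the Ly6 family, gave 523 and 458 in the wild type oil arrays and 21658 and 21989.8 after PPT. MOER went from 609.8 and 489.7 to 1010.3 and 944, and ERKO from 762 and 538 to 2248 and 2011. Its intensity in wild type PPT stood far above all other groups, and MOER minus ERKO was -0.89 ± 0.23 (adjusted p = 0.03), so MOER rose less than ERKO. Ly6d was highest in wild type PPT and ERKO PPT, the groups with high squamous and airway marker sums. By single markers those groups were unlike. Wild type called 1 of 7 tested higher (median 0.28) and ERKO 4 (median 3.60), so the wild type sum does not describe the list as a set. The part of these markers in Ly6d was not tested.

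Against the shared direction, the largest ERKO changes among named genes were those of Noct, Arntl and Clec2h. Noct, the rhythmic NADP phosphatase nocturnin, gave 129.6 and 134 in the wild type oil arrays and 188 and 169 after PPT. MOER went from 279 and 271 to 591 and 513, and ERKO from 539 and 465 to 96.8 and 97.4. It rose by 0.40 ± 0.10 in wild type and 0.96 ± 0.10 in MOER, and its combined contrast of 2.87 ± 0.13 (adjusted p = 1.59e-07) included an ERKO fall of 2.19. Arntl, which encodes the clock factor BMAL1, gave 171 and 169 in the wild type oil arrays and 122 and 116 after PPT. MOER went from 221 and 207 to 115 and 121, and ERKO from 69.5 and 68.8 to 217 and 205. For Arntl too the ERKO change of 1.41 ± 0.084 was larger than those of wild type (-0.46) and MOER (-0.78). Of 17 tested clock genes ERKO called 3 higher and 10 lower, wild type 2 higher and 9 lower, and MOER 4 higher and 2 lower. The labels give no hour of tissue collection.

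**Figure D5:**
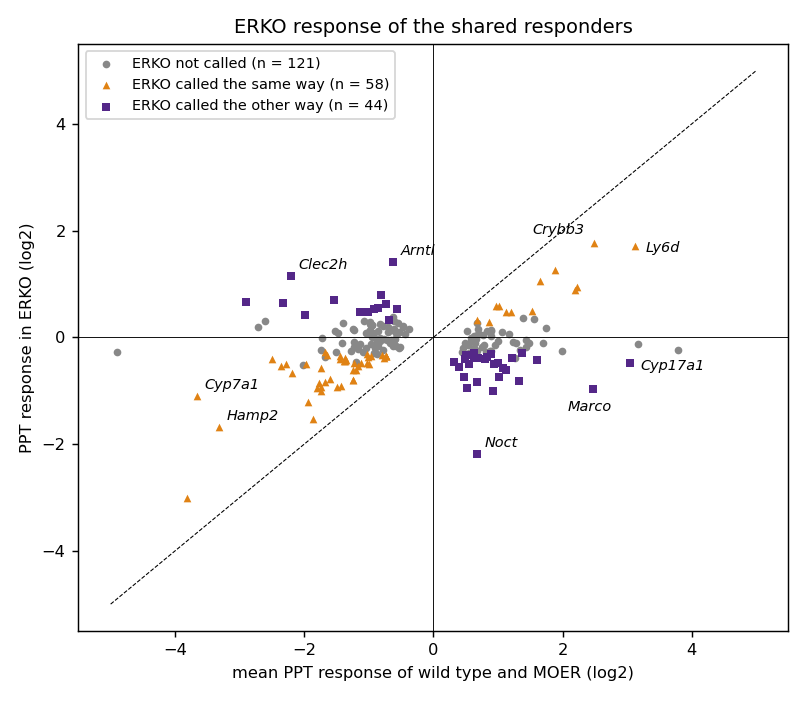
The ERKO change (y axis) against the average wild type and MOER change (x axis), both PPT minus oil on the log2 scale, for the 223 shared responders; the dashed line marks equal change. Circles mark 121 with no ERKO call, triangles 58 called in the shared direction and squares 44 called in the other direction, with Noct lowest on the right among the squares.

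The 45 shared responders that were bright in 1 wild type group alone had to differ in wild type. The sizes of the wild type and MOER changes are therefore compared for the other 178 only, as a description. These 178 were also chosen by their wild type and MOER calls, so no conclusion is drawn from their share beside that of all probe sets. The size differed for 101 of these (limma, wild type minus MOER, adjusted p under 0.05), beside 21.6% of all 19119 probe sets tested. Among those that rose, the wild type change was larger for 24 and the MOER change for 16, and among those that fell, for 52 and 9. In the rest the difference did not pass, which does not show equal size. Genes with larger changes in MOER included Cxcl1, Cxcl13, Cyp17a1 and Serpina3n, and genes with larger changes in wild type included Ly6d and Apoa4.

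Calls of opposite sign, beside the 326 of one sign, divided into 102 that rose in wild type and fell in MOER and 150 that did the reverse. Serpina12, the adipokine vaspin, gave 137 and 141 in the wild type oil arrays and 807 and 767 after PPT. MOER went from 199 and 202 to 43.2 and 43.2, and ERKO from 124 and 94.1 to 213 and 199.9. It rose by 2.37 ± 0.11 in wild type and, with MOER PPT dim, fell at least 3.32-fold in MOER. Eci3, an enoyl-CoA isomerase, gave 604 and 552 in the wild type oil arrays and 3383 and 3248 after PPT. MOER went from 784 and 554 to 187 and 219, and ERKO from 449 and 277 to 92.8 and 52.8. A1bg, a plasma glycoprotein and female-biased in mouse liver, gave 1058 and 1026 in the wild type oil arrays and 2712 and 2762 after PPT. MOER went from 852 and 802 to 115 and 148, and ERKO from 1986 and 1777 to 63.8 and 51.2. Its largest fall was in ERKO. Cyp3a13, a cytochrome P450, fell in wild type and rose in MOER. It gave 2979 and 2932 in the wild type oil arrays and 1187 and 1200.0 after PPT. MOER went from 1135 and 1017 to 3427 and 3729, and ERKO from 3763 and 3473 to 1374 and 1389. In each of these 4 genes the oil and PPT arrays of wild type and of MOER did not overlap. The genes were chosen by their calls and the size of these changes, so this is a description only.

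The brightness limit, the 60th percentile, was 119.02 to 123.664 in the 4 wild type arrays. Just inside it lay Fyb2, with 126 and 132 in wild type oil, and Mmp27, with 129 and 136 in wild type PPT. Just outside lay Gpx6, with 131 and 123 in wild type oil, and D130043K22Rik, with 144 and 120.1, each of which met every other condition. Because brightness in 1 wild type group was enough, 17 of the 91 that rose entered through the PPT arrays alone and 28 of the 132 that fell through the oil arrays alone, and these had to differ between the groups. Those that entered through PPT alone included Crybb3, Prtn3, AI506816, Ms4a4a and Cd300e. Those that entered through oil alone included Gbp11, Nrep, Car1, Clec2h, Aacs, Acot1, Cyp2c55, Onecut1 and Arntl.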

How the data were processed

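The deposited table holds 1 intensity per probe set and array on a linear scale. The background correction, summary and normalization that the authors applied before depositing these intensities are not named in the files or labels. Intensities were analysed as log2(intensity + 16). A single limma fit (lmFit and eBayes, limma 3.58.1, R 4.3.3) over the 6 groups of 2 arrays covered the 19119 probe sets that exceeded an array's 40th percentile on 2 or more of the 12 arrays. Contrasts were adjusted over all 19119 by Benjamini-Hochberg and called at an adjusted p under 0.05. The variance estimates had 6 residual and 10.47 moderated degrees of freedom. Where both arrays of a group lay below the 40th percentile of their array, a fold is given as at least the brighter group's mean log2 intensity against, per dim array, its 40th percentile, a bound that no dim array exceeded. No array was dropped or imputed. The precision is limited by the number of arrays.

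Of 28815 probe sets, 21780 list 1 gene symbol in the platform annotation, 1605 several and 5430 none, and 21689 were found in the RefSeq table of GRCm38.p6. Genes were named from probe sets with 1 symbol only. The 33 lists held 527 symbols, of which 482 were resolved to 1 symbol. The members and lists were chosen with earlier results of these data known. The genes named were the 15 of each direction with the largest smaller change of the 2 genotypes, up to 4 shared responders of each list with members that did not share it, 6 genes the study's question turns on, and those with the largest ERKO changes or opposite calls. Other named genes were chosen after their values were seen. The fit was tested on simulated data. Alternatives were other amounts added before log2, other brightness limits, no filter, quantile normalization, median centring, trended eBayes, the replicate number as a block, a Cyber-T-style test at 99.99% confidence and 2-fold, which the labels name, and each array left out.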

Additional observations from a re-analysis of the deposited data

Results flagged for a closer look

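For 16 of the 30 named genes with the largest shared changes, the size of the change differed between wild type and MOER (limma test of wild type minus MOER, Benjamini-Hochberg adjusted p under 0.05, 2 arrays per group). All 30 were chosen by their wild type and MOER calls and changes, so these sizes are a description. Among the genes that rose, wild type rose more for Prtn3 (by 3.55), Igfbp1 (1.56), Saa1 (0.84), Cd300e (0.71) and Slc3a1 (0.57). MOER rose more for Cxcl13 (-0.94) and Cyp17a1 (-0.76). Among the genes that fell, wild type fell more for Sucnr1 (-1.15), Ces1d (-1.15), Acaa1b (-0.91), Car1 (-0.83), Onecut1 (-0.80), Clec2h (-0.80), Nrep (-0.63) and Hamp2 (-0.62), and MOER fell more for Gbp11 (0.46). Prtn3, Cd300e, Gbp11, Nrep, Car1, Clec2h and Onecut1, 7 of the 16, were bright enough in 1 wild type group alone, so their wild type change was a condition of entry and their size against MOER is given as a value only. Onecut1 and Clec2h were dim in wild type PPT, so the sizes of their differences depend on the amount added before log2.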

How the results depend on the processing

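Of 84 genes followed through 12 other settings and 12 fits that each left out 1 array, 81 were called in the combined contrast at the reported setting, and 0 of these changed sign. Only the amount added before log2, quantile normalization, median centring and leaving out an array could change a sign. The remaining settings left the log2 value of a gene as it was. Other brightness limits also left the fit as it was, so no call of a gene could change there. Acaca, which was not called, lay between -0.07 and 0.02. A change of at least 2-fold in wild type and MOER left 14 up and 25 down, both among one-sign probe sets called in the combined contrast and among shared responders. The Cyber-T-style test gave 134 up and 146 down called in the combined contrast and 13 up and 18 down shared responders, and it lost 37 of the 81 gene calls. Quantile normalization gave 161 shared responders that rose, 90 of the 91 among them. The cause was not tested. Without 1 array the one-sign probe sets called in the combined contrast numbered 406 (without ERKO PPT replicate 2) to 1065 (without ERKO oil replicate 2) up, and 394 (without ERKO PPT replicate 2) to 1493 (without ERKO oil replicate 1) down. Without ERKO PPT replicate 1 there were 501 down, and without MOER oil replicate 1, 519. Shared responders numbered 45 (without MOER oil replicate 2) to 162 (without ERKO oil replicate 2) up, and 76 (without MOER oil replicate 1) to 236 (without ERKO oil replicate 1) down. They also numbered 58 up without MOER oil replicate 1, 51 up and 81 down without MOER PPT replicate 1, 46 up without MOER PPT replicate 2 and 147 up without ERKO oil replicate 1.

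With the replicate number as a block, 671 up and 794 down were called in the combined contrast and 93 up and 129 down were shared. Same-numbered arrays of 2 groups correlated in their deviations from group means at -0.147 to 0.377 over 15 pairs of groups. The value was over 0.1 in 5 of the 15, among them the 3 pairs of oil groups (0.354, 0.276 and 0.377). It was not over 0.1 in the other pairs, so the numbers were not taken to pair all arrays. Same-numbered oil arrays thus shared part of their deviation, which the main fit treats as independent. A single block over all arrays does not model a deviation of the oil arrays alone. What such a deviation does to the calls was not tested. The block lost the calls of Ces1d and Me1.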
